A study of Mus musculus with 4 samples.

Results

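The TNF superfamily ligands and receptors were examined in CD45+ cells of epididymal white adipose tissue (eWAT), the fat pad beside the epididymis. The members were 16 ligand genes and 17 receptor genes, chosen by name with earlier results of these data known. All 33 were found among the 35869 genes with a value. RNA-seq was performed on 2 samples from mice fed normal diet (ND) and 2 samples from mice fed high-fat diet (HFD). The mice were male WT C57BL/6 animals, the diets began at 8 weeks of age and lasted 12 weeks, and no other treatment was given to either group. The cells were enriched with CD45 microbeads, which bind a protein on the surface of leukocytes, out of the stromal vascular fraction. How many mice went into each library is not given in the sources used here, so the p-values measure the spread between these samples only. In bulk RNA, fewer cells of a type and less RNA per cell cannot be told apart.

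Ligands of this family are mostly membrane proteins that work as trimers on one cell and engage receptors on another, and several can be shed. Receptors with a death domain, such as Fas, can start apoptosis, while the others recruit TRAF adaptor proteins and lead to NF-κB and MAP kinase signaling. In adipose tissue the family is best known through TNF itself, a macrophage product linked to insulin resistance. Many other members are costimulatory pairs, in which an antigen-presenting cell carries the ligand and a T cell carries the receptor, or the reverse, as for CD40 ligand on T cells.

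The sequence before the start site is shown for Tnfsf11 and Ltb, ligands that fell strongly in HFD, and for Tnfrsf9, whose own change ran opposite to that of its ligand. The RefSeq table (GRCm38.p6, the assembly called mm10) held a start site for 24 of the 33 members. Each line gives the 250 bases before a start site, 5′ to 3′ on the strand of the gene, and capitals mark matches to the κB consensus, the motif read by NF-κB, or to the AP-1 motif TGANTCA, both searched on both strands.
Tnfsf11, chr14:78308044-78308293, minus strand: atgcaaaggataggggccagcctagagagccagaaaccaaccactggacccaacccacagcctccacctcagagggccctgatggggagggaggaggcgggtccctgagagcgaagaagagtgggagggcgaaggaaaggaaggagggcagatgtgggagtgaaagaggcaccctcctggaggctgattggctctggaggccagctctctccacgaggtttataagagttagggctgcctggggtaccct
Ltb, chr17:35194257-35194506, plus strand: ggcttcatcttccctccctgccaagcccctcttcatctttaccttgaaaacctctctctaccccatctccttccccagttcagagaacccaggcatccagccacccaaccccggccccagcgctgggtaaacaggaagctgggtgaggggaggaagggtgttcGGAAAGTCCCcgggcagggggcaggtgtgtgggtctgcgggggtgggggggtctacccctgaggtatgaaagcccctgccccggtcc
Tnfrsf9, second start site, chr4:150927749-150927998, plus strand: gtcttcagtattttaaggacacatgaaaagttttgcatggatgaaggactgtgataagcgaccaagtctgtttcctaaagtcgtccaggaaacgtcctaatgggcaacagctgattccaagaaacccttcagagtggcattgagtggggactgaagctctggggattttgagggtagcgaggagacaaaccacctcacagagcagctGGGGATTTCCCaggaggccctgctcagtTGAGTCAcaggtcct
Ltb held a κB match that begins 87 bases before the start. Tnfrsf9 held 2 overlapping κB matches, which begin 43 bases before its second start site, and an AP-1 match 15 bases before it. The window of Tnfsf11 and the window at the first start site of Tnfrsf9 held neither motif in these letters. The 24 members had 27 windows, some genes having more than one start site. A κB match occurred in 3 of these 27 windows and in 3.90% of all 32851 windows of this length. An AP-1 match occurred in 6 of the 27 windows and in 6.75% of all windows.

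The libraries were usable for most members. The deposited TPM are length-normalized transcript shares, that is, counts divided by gene length and brought to one common total per library. From the steps between the values of short microRNA genes, 1 read on a gene of 1 kb was worth between 0.0607 and 0.0711 TPM, which gives approximately 37500000 to 46800000 counted reads per sample. Ptprc, the gene of CD45, had 54.5 and 59.4 TPM under ND and 55.3 and 53.7 under HFD. The libraries also held RNA of other cells, and the HFD samples differed in it. Spermatid markers were 3.24 times higher in HFD replicate 1 than in replicate 2, and fibroblast markers were 2.0 times, epididymal epithelium markers 2.37 times and mesothelial markers 1.58 times higher in replicate 2 than in replicate 1.

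More members of the family were called lower than higher in HFD. Of the 33 members, 30 had at least 1 TPM in at least 2 samples and were compared with limma on the log2(TPM + 1) scale, together with all 16849 genes that passed this filter. A gene was called when its Benjamini-Hochberg adjusted p-value was under 0.05 and its change at least 1.5-fold. By this rule 14 of the 30 members were called (46.7%), against 18.4% of all genes tested. Lower in HFD were 12 members, 7 ligands and 5 receptors, where 10.3% of all genes were called lower. Higher in HFD were 2 members, both ligands, where 8.08% of all genes were called higher. The median log2 difference was -0.55 over the 30 members and 0.06 over all genes tested. The HFD values lay on one side of both ND values in 28 of the 30 members, and they did so in 66.9% of all genes tested. With a single ND sample, either one, the spread comes from the HFD pair alone, and no gene was called by limma. With a single HFD sample the spread comes from the ND pair alone, so calls from such fits cannot show stability to losing an HFD sample.

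**Figure D1:**
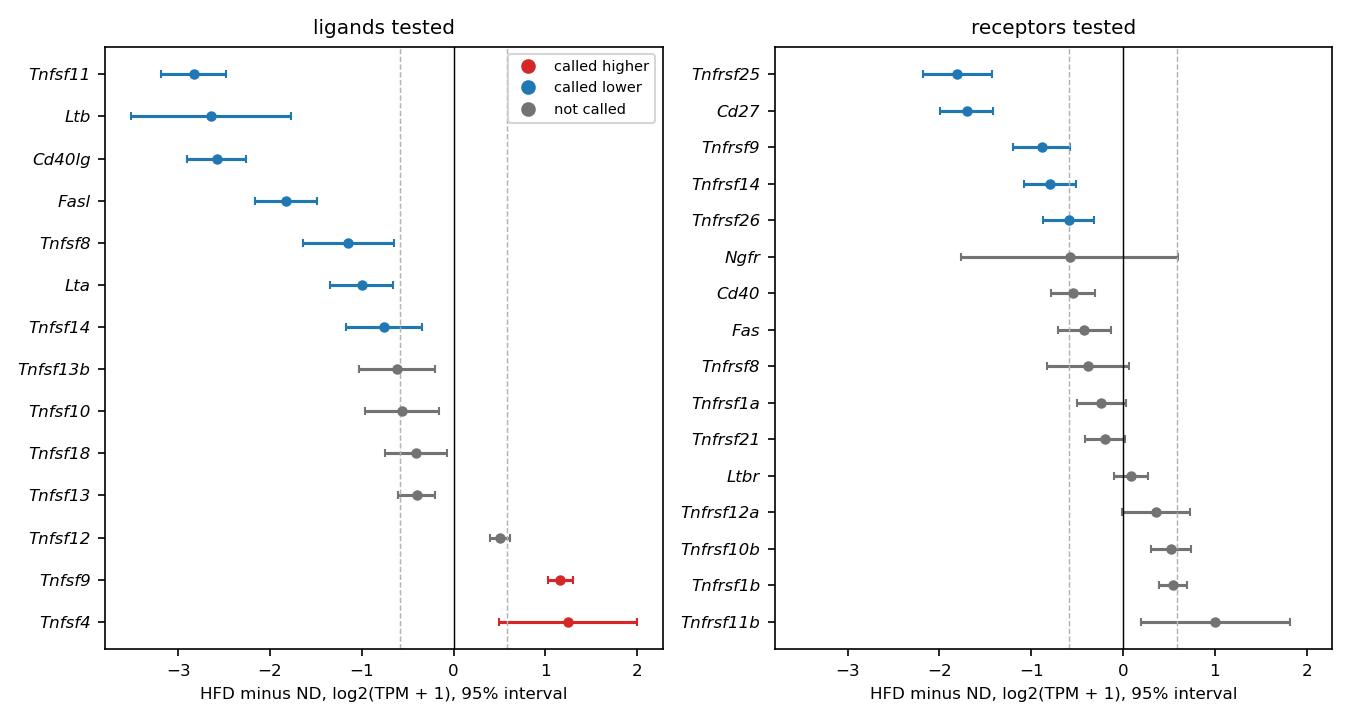
Difference between HFD and ND on the log2(TPM + 1) scale (x axis) for the 14 ligands and 16 receptors tested, with 95% intervals from limma (2 samples per diet) and dashed lines at 1.5-fold. The lower calls reach from -2.83 for Tnfsf11 to -0.59 for Tnfrsf26, and the higher calls are Tnfsf9 and Tnfsf4.

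The levels of the members spanned more than the changes did. TPM is per length, so levels can be compared between genes. Tnfsf12, which codes for TWEAK, had the highest level among the ligands in every sample and made up 43.7% and 43.1% of the summed ligand TPM in ND and 54.0% and 53.7% in HFD. Tnfsf9 and Tnfsf13 followed it in summed share, and these 3 genes together held 71.2% and 70.2% of the ligand TPM in ND and 93.2% and 91.3% in HFD. Among the receptors, Tnfrsf1a, Tnfrsf1b and Ltbr held between 76.9% and 80.4% of the receptor TPM in each sample. In ND, Tnfsf11 was above Cd40lg within each sample (19.0 against 17.4 and 22.5 against 19.5 TPM), though their ranges overlapped. Tnfsf10 and Fasl were equal in ND replicate 1 (12.7 TPM), so their order is not resolved. In HFD, Tnfrsf1a was above Tnfrsf1b within each sample (337.6 against 328.6 and 392.5 against 352.2 TPM), though their ranges overlapped.

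**Figure D2:**
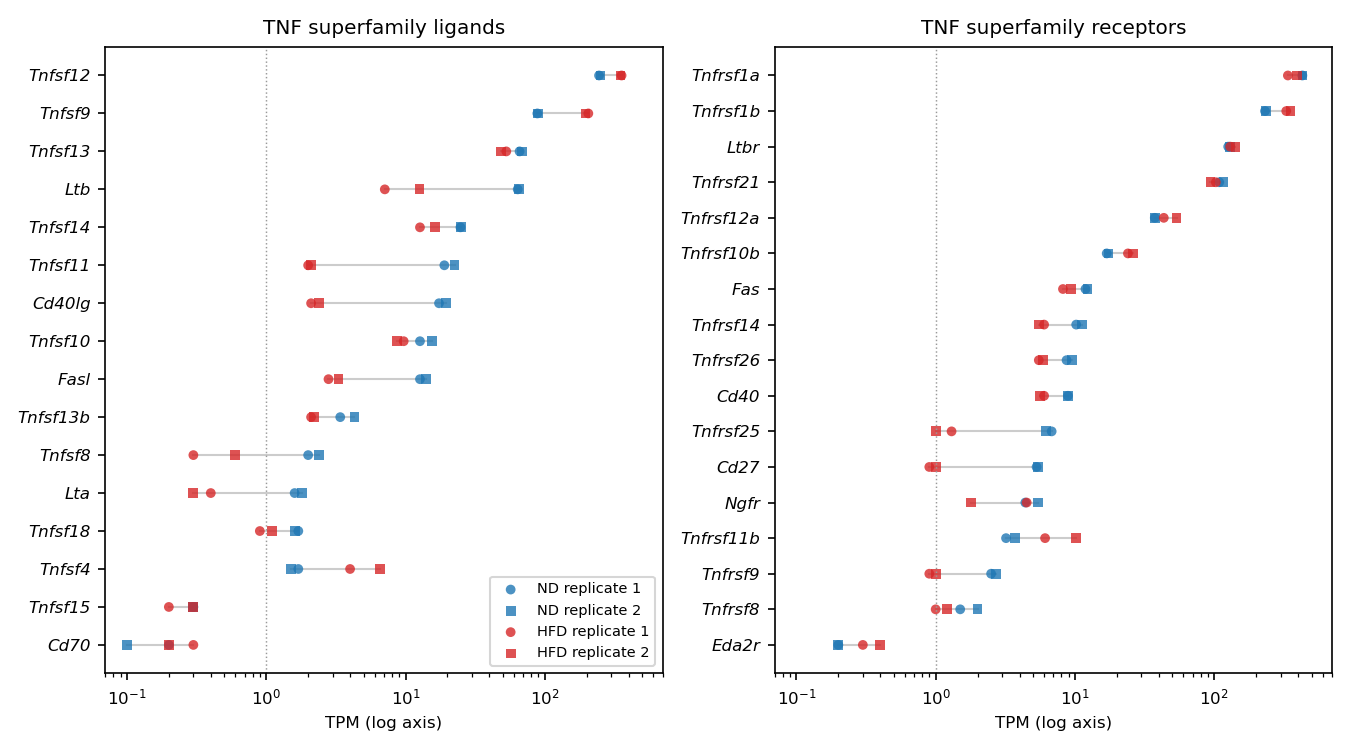
TPM on a log axis of the 16 ligands and 17 receptors in each of the 4 samples, ordered by their ND mean, with a dotted line at 1 TPM. The ND samples lie close together for most genes, and the gap between ND and HFD is widest for Tnfsf11, Cd40lg and Ltb.

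The ligands that fell in HFD are, as background, mostly products of T cells, NK cells and innate lymphoid cells. Tnfsf11 codes for RANKL, the ligand that drives osteoclast formation and that activated T cells also make. Tnfsf11 had 19.0 and 22.5 TPM under ND and 2.0 and 2.1 under HFD. Both HFD values were far under both ND values, a mean of 20.8 ± 2.47 TPM against 2.05 ± 0.0707 TPM (SD, n = 2 each), or 10.1 times lower. The log2 difference was -2.83 (standard error 0.12, adjusted p = 0.00500 in limma), which ranked 117 by size among the 16849 genes. The HFD values correspond to approximately 72 and 66 reads.

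Ltb codes for lymphotoxin β, which pairs with lymphotoxin α on lymphocytes and serves the upkeep of lymphoid tissue. Ltb had 63.9 and 65.3 TPM under ND and 7.1 and 12.6 under HFD. The samples did not overlap, but the HFD samples differed 1.77-fold, and the log2 difference was -2.64 (standard error 0.29, adjusted p = 0.0158). Lta, the gene of lymphotoxin α, was much lower, with 1.6 and 1.8 TPM under ND and 0.4 and 0.3 under HFD, or approximately 32, 41, 9 and 6 reads. Its log2 difference was -1.0 (standard error 0.12, adjusted p = 0.0170), and the added 1 in the logarithm makes this smaller than the 4.86-fold ratio of the means. With a pseudocount of 5 it was -0.32, under the fold limit, and with 0.1 it was -2.01. Lta and Ltb lie 11072 bases from end to end on chromosome 17 and were both called lower.

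Cd40lg codes for the CD40 ligand, by which helper T cells activate B cells, dendritic cells and macrophages. Cd40lg had 17.4 and 19.5 TPM under ND and 2.1 and 2.4 under HFD, a log2 difference of -2.58 (standard error 0.11, adjusted p = 0.00500). The means differed 8.20-fold. Fasl codes for Fas ligand, a killing molecule of cytotoxic T cells and NK cells. Fasl had 12.7 and 14.0 TPM under ND and 2.8 and 3.3 under HFD, a log2 difference of -1.83 (standard error 0.11, adjusted p = 0.00714). In both genes the spread within a diet was small beside the gap between the diets.

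A further pair of ligands fell as well. Tnfsf14 codes for LIGHT, a ligand shared by the herpesvirus entry mediator and the lymphotoxin β receptor. Tnfsf14 had 24.8 and 25.0 TPM under ND and 12.7 and 16.2 under HFD, a log2 difference of -0.75 (standard error 0.14, adjusted p = 0.0381). Its call was lost through the p-value, at a like or larger difference, after median-ratio scaling (-0.78, adjusted p = 0.0646), after quantile normalization (-0.84, adjusted p = 0.0609) and with no filter (-0.75, adjusted p = 0.0758). Tnfsf8 codes for the CD30 ligand, and it had 2.0 and 2.4 TPM under ND and 0.3 and 0.6 under HFD, approximately 18 and 32 reads in HFD. The log2 difference of Tnfsf8 was -1.15 (standard error 0.17, adjusted p = 0.0251). It was -0.997 without HFD replicate 1, with an adjusted p of 0.0545 in limma, past the threshold, as it was with no filter (adjusted p = 0.0531). With a pseudocount of 5 it was -0.40, under the fold limit, and with 0.1 it was -2.11.

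Only Tnfsf9 and Tnfsf4 were called higher in HFD among the 30 members tested. Both code for costimulatory ligands of antigen-presenting cells. Tnfsf9, the CD137 ligand, had 88.4 and 89.6 TPM under ND and 205.3 and 196.0 under HFD. Both HFD values exceeded both ND values by far more than the spread within a diet, with a log2 difference of 1.16 (standard error 0.05, adjusted p = 0.00477) and a 2.25-fold ratio of the means. A long noncoding RNA gene on the other strand, Gm11110, shares 192 exonic bases with Tnfsf9, and whether the counting used strand is not stated. Tnfsf4, the OX40 ligand, was low, with 1.7 and 1.5 TPM under ND and 4.0 and 6.6 under HFD. Its log2 difference was 1.25 (standard error 0.25, adjusted p = 0.0462), just inside the threshold, and the HFD samples differed 1.65-fold. The call of Tnfsf4 was lost at nearly the same difference after median-ratio scaling (1.23, adjusted p = 0.0638), after quantile normalization (1.24, adjusted p = 0.0766) and with no filter (1.25, adjusted p = 0.0945), and at 0.63 with a pseudocount of 5 (adjusted p = 0.0612).

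The other ligands tested were not called. Tnfsf12 had 245.1 and 251.2 TPM under ND and 355.6 and 348.9 under HFD. Its log2 difference of 0.50 (standard error 0.04, adjusted p = 0.00878) passed the p-value threshold, but at 1.42-fold it lay under the limit of 1.5-fold. Tnfsf13, the gene of APRIL, a survival factor of plasma cells, had 65.9 and 68.6 TPM under ND and 52.9 and 48.5 under HFD, a log2 difference of -0.40 (adjusted p = 0.0323), also under the fold limit. Tnfsf12 and Tnfsf13 are neighbors on chromosome 11 and share 731 and 983 exonic bases with the read-through gene Tnfsfm13, so reads there could be split between them. Tnfsf13 also shares 221 exonic bases with the antisense gene Tnfsf13os.

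Tnfsf13b codes for BAFF, the survival factor of B cells. It had 3.4 and 4.3 TPM under ND and 2.1 and 2.2 under HFD, a log2 difference of -0.62 (adjusted p = 0.0552). Tnfsf10 codes for TRAIL, a death ligand induced by interferon, and had 12.7 and 15.5 TPM under ND and 9.7 and 8.7 under HFD, a log2 difference of -0.56 (adjusted p = 0.0624). Tnfsf18, the gene of the GITR ligand, had 1.7 and 1.6 TPM under ND and 0.9 and 1.1 under HFD, a log2 difference of -0.41 (adjusted p = 0.0842). In each of these 3 genes both HFD values lay under both ND values, but the difference did not pass the threshold in limma. After median-ratio scaling Tnfsf10 (adjusted p = 0.0343) and Tnfsf13b (adjusted p = 0.0499) were called lower, as were Tnfsf10 after quantile normalization (adjusted p = 0.0375) and Tnfsf13b without a variance trend (adjusted p = 0.0495). Tnfsf15, the gene of TL1A, had 0.2 to 0.3 TPM and Cd70, the ligand of CD27, had 0.1 to 0.3 TPM, and both were under the filter in all samples, with at most 17 and 4 reads.

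The receptors that fell are mostly known from lymphocytes. Tnfrsf25 codes for DR3, the receptor of TL1A on T cells and innate lymphoid cells. Tnfrsf25 had 6.8 and 6.2 TPM under ND and 1.3 and 1.0 under HFD, a log2 difference of -1.80 (standard error 0.13, adjusted p = 0.00824). Cd27, a costimulatory receptor of T, B and NK cells, had 5.3 and 5.4 TPM under ND and 0.9 and 1.0 under HFD. Its log2 difference was -1.70 (standard error 0.10, adjusted p = 0.00626), and the HFD values rest on approximately 34 and 33 reads. The microRNA gene Mir8113 on the same strand shares 129 exonic bases with Cd27. With a pseudocount of 5 the differences were -0.90 for Tnfrsf25 and -0.80 for Cd27, both still called. Both receptors were more than 5-fold lower in the means, 5.65-fold for Tnfrsf25 and 5.63-fold for Cd27.

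Tnfrsf9 codes for CD137, the costimulatory receptor that binds the Tnfsf9 product on activated T and NK cells. Tnfrsf9 had 2.5 and 2.7 TPM under ND and 0.9 and 1.0 under HFD, a log2 difference of -0.88 (standard error 0.10, adjusted p = 0.0176). Tnfrsf14, the herpesvirus entry mediator, had 10.2 and 11.2 TPM under ND and 6.0 and 5.5 under HFD, a log2 difference of -0.79 (standard error 0.10, adjusted p = 0.0184). With a pseudocount of 5 the differences were -0.35 for Tnfrsf9 and -0.55 for Tnfrsf14, under the fold limit, and with a pseudocount of 0.1 they were -1.36 and -0.88. Tnfrsf26 had 8.7 and 9.5 TPM under ND and 5.5 and 5.9 under HFD. At -0.59 (standard error 0.09, adjusted p = 0.0287), Tnfrsf26 had the smallest change of the 14 members called and lay at the fold limit. It was not called without HFD replicate 1 (-0.55) or without HFD replicate 2 (-0.63, adjusted p = 0.0505).

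No receptor among the members was called higher by limma, with 3 of the 16 tested at an unadjusted p under 0.05 in that direction and 7 in the other. Of all 16849 genes tested, 7133 were under it in either direction. Tnfrsf1b, the gene of the second TNF receptor, had 231.4 and 234.9 TPM under ND and 328.6 and 352.2 under HFD. Its log2 difference of 0.54 (standard error 0.05, adjusted p = 0.0123) missed the limit of 1.5-fold at 1.46-fold in the means. Without HFD replicate 1 the difference was 0.59. Tnfrsf1a, the death domain receptor of TNF that most cells carry, had 428.8 and 429.7 TPM under ND and 337.6 and 392.5 under HFD, a log2 difference of -0.24 (95% interval -0.50 to 0.03, adjusted p = 0.146). It became -0.13 when HFD replicate 1 was left out and -0.35 when replicate 2 was. The differences of the 2 TNF receptors lay on opposite sides of 0, and neither was called.

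Tnfrsf10b, the TRAIL receptor DR5, had 16.9 and 17.4 TPM under ND and 24.0 and 26.1 under HFD, a log2 difference of 0.52 (adjusted p = 0.0234) under the fold limit. Tnfrsf11b codes for osteoprotegerin, the soluble decoy that binds RANKL and TRAIL and is made mainly by stromal cells. Tnfrsf11b had 3.2 and 3.7 TPM under ND and 6.1 and 10.2 under HFD, a log2 difference of 1.01 with a wide 95% interval from 0.19 to 1.82 (adjusted p = 0.0797). Without HFD replicate 1 its log2 difference was 1.33, and without HFD replicate 2 it was 0.68. Tnfrsf12a, the TWEAK receptor Fn14, had 37.4 and 37.3 TPM under ND and 43.4 and 53.6 under HFD, a log2 difference of 0.36 (adjusted p = 0.123). It became 0.51 when HFD replicate 1 was left out and 0.21 when replicate 2 was.

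The remaining receptors were not called either. Cd40 had 8.9 TPM in both ND samples and 6.0 and 5.6 TPM in HFD, means that differed 1.53-fold. Its log2 difference of -0.54 (adjusted p = 0.0264 in limma) was under the fold limit, which acts on the log2(TPM + 1) scale. Cd40 was called lower with a pseudocount of 0.1 (-0.61) and after quantile normalization (-0.59). Without HFD replicate 1 its difference was -0.58. Fas had 11.9 and 12.3 TPM under ND and 8.2 and 9.4 under HFD, a log2 difference of -0.42 (adjusted p = 0.0588). Tnfrsf21, the death receptor DR6, had a log2 difference of -0.19 (adjusted p = 0.145). Tnfrsf8, the CD30 gene, had 1.0 to 2.0 TPM and a log2 difference of -0.38 (adjusted p = 0.155). Ltbr, the lymphotoxin β receptor of myeloid and stromal cells, had 125.9 and 130.2 TPM under ND and 130.1 and 141.8 under HFD, and its difference lay between -0.10 and 0.27 with 95% confidence. The groups overlapped in Ltbr and in Ngfr, the neurotrophin receptor. Ngfr had 4.4 and 5.4 TPM under ND and 4.5 and 1.8 under HFD, and its interval, from -1.76 to 0.60, spans 0. The difference became -1.07 when HFD replicate 1 was left out and -0.096 when replicate 2 was. Eda2r, an ectodysplasin receptor, had 0.2 to 0.4 TPM and was under the filter.

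Ligands were then set against their receptors. Among 26 known pairs, some with a partner outside the 33 members, 2 had both genes called in the same direction, Tnfsf14 with Tnfrsf14 and Lta with Tnfrsf14. The ligand alone was called in 8 pairs and the receptor alone in 7, neither was called in 6, and 3 had opposite calls. A gene can stand in several pairs, and in 2 of the 7 pairs with the receptor alone, those of Tnfsf15 and Cd70, the ligand was not tested. A gene not called can still differ, as Tnfrsf1b and Cd40 did at an adjusted p under 0.05 but under the fold limit. Tnfsf9 with Tnfrsf9 was one of these 3, with the ligand higher and the receptor lower in HFD. The TPM ratio of Tnfsf9 to Tnfrsf9 within a sample was 35.4 and 33.2 in ND and 228 and 196 in HFD. Tnfsf4 with Tnfrsf4, the OX40 gene, showed the same arrangement, with ratios of 0.135 and 0.108 in ND and 1.38 and 1.69 in HFD.

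Tnfsf11 with its signaling receptor gene Tnfrsf11a, which codes for RANK, was the third pair with opposite calls, with the ligand lower and the receptor higher. The ratio of Tnfsf11 to Tnfrsf11a was 0.597 and 0.625 in ND and 0.0314 and 0.0387 in HFD. Against the decoy gene Tnfrsf11b, the ratio of Tnfsf11 was 5.94 and 6.08 in ND and 0.328 and 0.206 in HFD. RANKL transcripts were thus more abundant than those of the decoy in both ND samples and less abundant in both HFD samples. The same crossing of 1 was seen for Cd40lg over Cd40, at 1.96 and 2.19 in ND and 0.35 and 0.429 in HFD, and for Fasl over Fas, at 1.07 and 1.14 in ND and 0.341 and 0.351 in HFD. Tnfsf12 over Tnfrsf12a overlapped between the diets, with 6.55 and 6.73 in ND and 8.19 and 6.51 in HFD. These ratios are descriptions and were not tested.

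**Figure D3:**
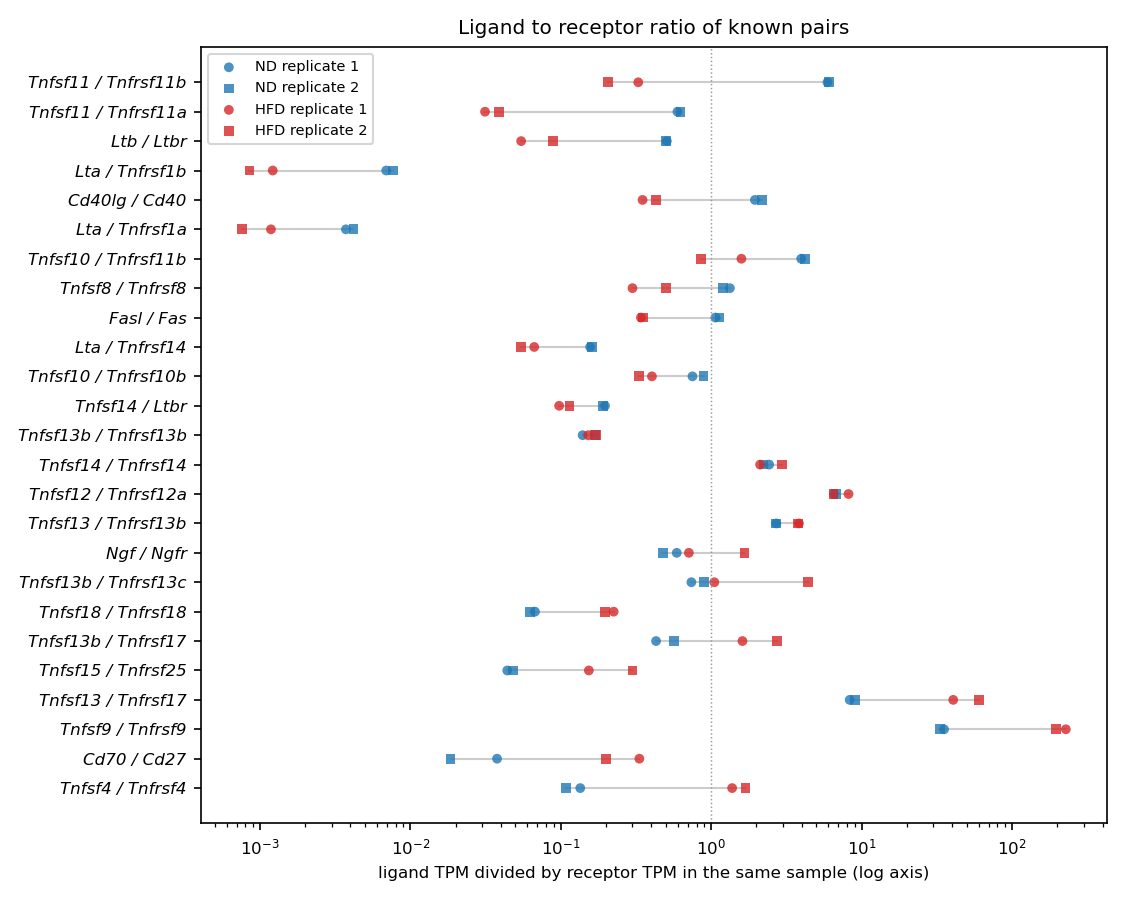
Ligand TPM divided by receptor TPM in the same sample, on a log axis, for 25 known pairs (the pair of Eda and Eda2r, both under 1 TPM, is not drawn), ordered by the change from ND to HFD. Pairs at the top, led by Tnfsf11 with Tnfrsf11b, have a lower ratio in HFD, and pairs at the bottom, such as Tnfsf9 with Tnfrsf9, a higher one, while ratios with Cd70 or Tnfsf15 rest on few reads.

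Further genes of the family and its ligands, outside the 33 and also chosen with earlier results of these data known, were compared too. Of 15 such genes, 11 were tested, of which 5 were called lower in HFD, where 10.3% of all genes were, and 2 higher, where 8.08% of all genes were. The lower ones were Tnfrsf18, the GITR gene (-2.20), Tnfrsf17, the BCMA gene of plasma cells (-2.10), Tnfrsf4 (-1.70), Relt (-1.67) and Tnfrsf13b, the TACI gene of B cells (-0.85). Tnfrsf18 had 25.2 and 25.7 TPM under ND and 4.0 and 5.6 under HFD. The higher ones were Tnfrsf11a (0.78), with 31.8 and 36.0 TPM under ND and 63.7 and 54.3 under HFD, and the decoy receptor gene Tnfrsf23 (0.69), with 0.9 and 1.0 TPM under ND and 2.0 and 2.3 under HFD. Tnf itself had 155.5 and 164.6 TPM under ND and 387.8 and 247.4 under HFD, a log2 difference of 0.95 that did not pass the threshold (standard error 0.25, adjusted p = 0.0770).

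Genes that carry the signal inside the cell were compared in the same fit. Of 32 signalling genes, all tested, 3 were called lower and none higher in limma, or 9.38% against 18.4% of all genes. At an unadjusted p under 0.05 there were 13 lower and 3 higher, and 7133 of all 16849 genes in either direction. The count depends on the fold limit, without which 9 of the 32 and 4602 of the 16849 genes were called. Map3k14 codes for NIK, the kinase of the noncanonical NF-κB arm, which LTβR, CD40 and BAFF receptor engage. Map3k14 fell from 94.8 and 93.3 TPM under ND to 45.2 and 48.1 under HFD, a log2 difference of -0.997 (standard error 0.05, adjusted p = 0.00606). Birc3, an inhibitor of apoptosis and a known NF-κB target, fell from 59.8 and 62.1 TPM to 29.0 and 32.9 TPM, a log2 difference of -0.96 (adjusted p = 0.0112). Bid, which links death receptors to mitochondria, fell by 0.64 on the log2 scale (adjusted p = 0.0183). None of the 9 adaptor genes, Traf1 to Traf6, Tradd, Fadd and Ripk1, was called by limma, but Traf5 (-0.27, adjusted p = 0.0312) and Ripk1 (-0.32, adjusted p = 0.0339) passed the p-value threshold under the fold limit, both lower in HFD. Outside the adaptors, Rela (-0.49, adjusted p = 0.0118) and Ikbkb (-0.31, adjusted p = 0.0493) did so as well, lower in HFD. Cflar (0.54, adjusted p = 0.0312) and Ripk3 (0.35, adjusted p = 0.0472) did so higher in HFD. Nfkbia, the NF-κB inhibitor that the pathway induces, had the highest level of the list, with 1725.3 and 1708.1 TPM under ND and 1804.2 and 1740.8 under HFD, and its log2 difference was 0.05 (adjusted p = 0.410).

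Members that are neighbors in the genome did not always share a direction. With gaps of at most 1000000 bases, 17 of the 33 members lay in 7 runs. On chromosome 1, from 161395438 to 161788495 of mm10, Tnfsf4 was called higher and Fasl lower, while Tnfsf18 between them was not called. On chromosome 17, from 57105287 to 57194181, Tnfsf9 was called higher and Tnfsf14 lower, with Cd70 between them under the filter. On chromosome 6, from 125232620 to 125362483, Cd27 was called lower, while Ltbr and Tnfrsf1a, its neighbors, were not called. On chromosome 4, from 63724600 to 63861508, Tnfsf8 was called lower and Tnfsf15 was under the filter.

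Markers of the cells that carry these genes moved as well. All 5 T cell markers with a value were called lower in HFD, and their summed level was 136.2 and 143.0 TPM under ND and 18.8 and 31.7 under HFD, 5.53 times lower in the means. All 6 NK cell markers were called lower, with sums of 201.5 and 206.2 TPM under ND and 42.4 and 33.1 under HFD. All 6 markers of type 2 innate lymphoid cells were called lower, from sums of 251.5 and 258.5 TPM to 86.1 and 93.5 TPM. Of 6 B cell markers, 5 were called lower, from 116.9 and 115.5 TPM to 24.7 and 29.2 TPM. No marker of these 4 lists was at 0 in a sample. Beside the 5.53-fold decrease of the T cell sum, the TPM of Tnfsf11 was 10.1-fold, Cd40lg 8.20-fold, Ltb 6.56-fold and Fasl 4.38-fold lower. The part of the lymphocyte markers in these decreases was not tested.

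Macrophage genes gave another picture. The 6 general macrophage markers had sums of 3728.4 and 3702.3 TPM under ND and 4243.0 and 4742.0 under HFD, with 2 called higher (Adgre1 and Cd68) and 4 not called. Of these 6 markers 3 had a positive and 3 a negative log2 difference, with a median of 0.05, and Csf1r had one of -0.56 (adjusted p = 0.00929 in limma) under the fold limit. All 6 markers of lipid-associated macrophages were called higher, from 1053.3 and 1100.6 TPM to 7924.0 and 8297.6 TPM, and all 6 of resident macrophages were called lower, from 3009.6 and 3128.1 TPM to 1142.9 and 981.1 TPM. Among other leukocytes, 3 of 4 tested CD4 and regulatory T cell markers, 2 of 2 CD8 T cell, 4 of 4 mast cell, 4 of 5 neutrophil, 2 of 5 monocyte, 3 of 8 conventional dendritic cell, 1 of 3 plasmacytoid dendritic cell and 1 of 3 eosinophil markers were called lower and none of these higher by limma, with 1 monocyte marker at an unadjusted p under 0.05 in that direction. Of 4 plasma cell markers, 2 were called lower and 1 higher. Outside the leukocytes, 3 of 4 epididymal and 1 of 5 mesothelial markers were called lower and 1 of 5 adipocyte markers higher. Of 5 endothelial markers, 0 were called by limma, with 3 at an unadjusted p under 0.05, and of 5 spermatid markers 0 were called and 0 had an unadjusted p under 0.05. Tnfsf9 and Tnfrsf1b, which macrophages are known to express, had higher values in HFD, and the part of the macrophage markers in this was not tested. Of 7 fibroblast markers, 5 were called higher, and their sum was 593.5 and 637.8 TPM under ND and 3031.9 and 6063.6 under HFD. Between the HFD samples, Tnfrsf11b was 1.67 times higher in replicate 2, and the fibroblast sum 2.0 times. Ltb was 1.77 times higher in HFD replicate 2 than in replicate 1, and the T cell sum 1.69 times higher. Ngfr was 2.50 times higher in HFD replicate 1 than in replicate 2, and the Schwann cell and nerve markers, which also express it, summed to at most 0.9 TPM in every sample. The part of these cells in the difference between the HFD samples was not tested.

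**Figure D4:**
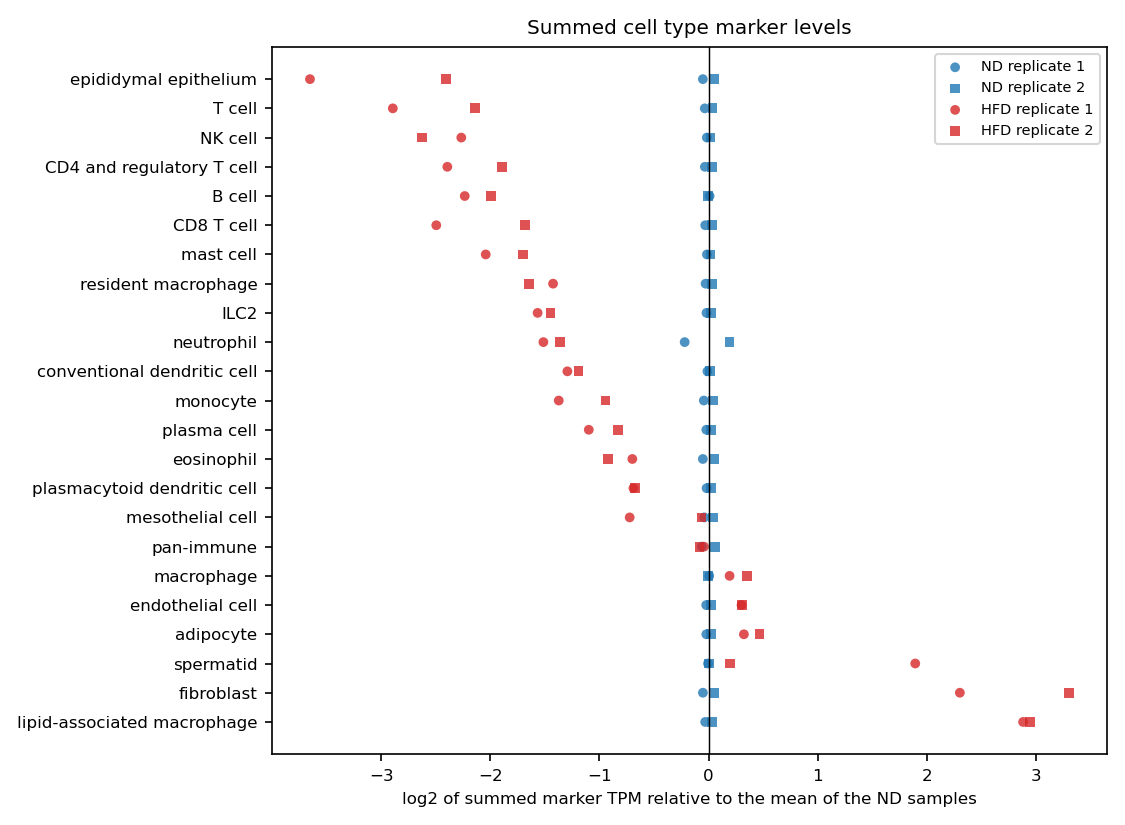
Summed TPM of 23 lists of cell type markers in each sample, as log2 relative to the mean of the ND samples (x axis). T cell, NK cell and B cell sums lie more than 1.5 below the ND mean in both HFD samples, the lipid-associated macrophage sum lies 2.88 and 2.95 above it, and the fibroblast and spermatid sums differ between the HFD samples.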

How the data were processed

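Reads were processed by the authors: trimming with Trim Galore 0.4.2 and cutadapt 1.9.1, alignment to mm10 with STAR 2.6.1e, removal of duplicates with Sambamba and counting per gene with featureCounts 1.6.2 (versions from the submitters' processing notes). The deposited values are TPM to 1 decimal, 1 file per sample, and sum to nearly the same total in each sample. The annotation and the strand setting are not given in the sources used here.

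TPM were joined by gene symbol, and 16849 genes with at least 1 TPM in at least 2 of 4 samples were kept. HFD was compared with ND on log2(TPM + 1) with limma 3.58.1 (R 4.3.3, eBayes with trend=TRUE, Benjamini-Hochberg adjustment over all genes tested). Calls needed an adjusted p under 0.05 and 1.5-fold. TPM are not counts, so no count model was used. On simulated data with 200 changed genes, 33.0% of 2-fold and 68.0% of 4-fold changes were called, and 7.34% of the calls were genes that had not been changed. Far more genes were called in the data, 3097 of 16849, so these rates need not carry over.

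The members, pairs, the list of 15 further family genes, the 32 signalling and 7 processing genes and the 24 lists of cell type markers were chosen with earlier results of these data known. All 33 members are accounted for. Called genes are named for the further family genes, the signalling and the processing genes, and the marker lists are given by counts and sums. Read numbers use GENCODE vM21 exon lengths and are approximate, since the authors' annotation may differ. Positions and promoters are from RefSeq GRCm38.p6. No protein sequence was used here. The alternatives, 14 settings, were another pseudocount, filter, variance model, scaling or fold limit, a replicate block, and each sample left out. The replicate numbers were not taken as pairs.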

Additional observations from a re-analysis of the deposited data

How the results depend on the processing

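The number of members called was 14. A pseudocount of 5, by which changes of low genes shrink, gave 8. There were 8 with a mean TPM of at least 5, which tests 20 members, and 5 with a replicate block, all 5 among the 14. The pseudocount of 5 lost Tnfsf4, Tnfsf8, Lta, Tnfrsf9, Tnfrsf14 and Tnfrsf26, and the block lost these 6 with Tnfsf14, Ltb and Cd27. A limit of 2-fold lost Tnfsf14, Tnfrsf9, Tnfrsf14 and Tnfrsf26, and quantile normalization lost Tnfsf4, Tnfsf14 and Tnfrsf26. With no filter 11 members were called, without Tnfsf4, Tnfsf8 and Tnfsf14. Leaving out 1 sample gave 0 to 15 members, 0 to 9 further family genes, 0 to 4 signalling genes and 0 to 4177 of all genes. Each 0 came from leaving out an ND sample, where the lone ND sample is assumed to vary like the HFD pair. When an HFD sample is left out, the lone HFD sample is likewise assumed to vary like the ND pair. The 7 further family genes were 4 with a mean TPM of at least 5, 3 with the block and 4 at 2-fold. The 3 signalling genes were 0 at 2-fold and 9 without a fold limit. Of all genes, 3097 were called, 2015 with a pseudocount of 5, 812 with the replicate block and 1602 at 2-fold. Where no construction of the setting shows the cause, it was not tested. Samples with the same replicate number did not deviate together (correlation across genes -0.015). With 2 samples per diet this is a single value, which cannot exclude a shared batch or pairing. Tnfsf9, Tnfsf11, Cd40lg and Fasl were called under 13 of 15 settings, all but those without an ND sample. Among called members kept with a pseudocount of 5, Tnfsf11 was -1.87, Cd40lg -1.69 and Fasl -1.19. Ltbr changed direction after quantile normalization, to -0.030. Over the member values tested in both the main fit and an alternative, 337 kept direction and call, 54 lost the call, 14 gained it and 1 changed direction. Members under the filter of an alternative are not in these numbers, though calls were lost there too. Scaling moved the median of all genes by less than 0.1 on the log2 scale. Depth limits the members under 1 TPM and the tested members with under 50 reads in a sample, namely Lta, Tnfsf8, Tnfsf18, Tnfsf4, Tnfrsf25, Cd27, Tnfrsf9 and Cd40lg, and values to 1 decimal limit ratios of the lowest genes.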

Other observations

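Several ligands of the family are cut from the membrane or inside the cell, and the genes of this step were compared as well. Of 7 such genes, all tested, 1 was called, against 18.4% of all genes. Adam17, the protease that sheds TNF and several of the receptors, had 20.1 and 21.7 TPM under ND and 35.7 and 38.1 under HFD, a log2 difference of 0.79 (standard error 0.07, adjusted p = 0.0121 in limma). Both HFD values lay above both ND values. Timp3, the tissue inhibitor of ADAM17, had 119.4 and 127.7 TPM under ND and 120.5 and 136.4 under HFD, a log2 difference of 0.05 (adjusted p = 0.681). Furin, which cleaves the APRIL and TWEAK precursors, had a log2 difference of -0.15 (adjusted p = 0.141), and Adam10 had one of 0.22 (adjusted p = 0.0891).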
